A study of Homo sapiens with 4 samples.

Results

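A set of 10 long noncoding RNAs known from stress and cancer work was followed in cadmium-resistant breast cancer cells: MALAT1, NEAT1, GAS5, SNHG1, SNHG5, SNHG12, PVT1, CYTOR, MIR22HG and NORAD. They were chosen by symbol, matched through their Ensembl identifiers, and made up 10 of the 61541 genes of the count table, of which 17658 are annotated as long noncoding RNA (lncRNA) genes. All 10 were found, and all 10 passed the low-count filter of the test.

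The cells were MDA-MB-231, an established human breast cancer line. Control cells were parental cells passaged in ordinary medium without cadmium, and cadmium-resistant cells were obtained by long serial passage in cadmium sulfate, at a final concentration of 10 µM. Each group had 2 libraries (n = 2), named here control 2 and control 3, after the numbers in the count table, and cadmium 1 and cadmium 2. The resistant cells came from a selected line, and the labels do not say whether their libraries came from separate selections, so p-values measure only the spread between these libraries.

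A long noncoding RNA is a transcript that is not translated into a protein and acts as RNA, or through the smaller RNAs cut from it. MALAT1 and NEAT1 stay in the nucleus, where they sit in nuclear speckles and build paraspeckles. GAS5 and the SNHG genes carry small nucleolar RNAs (snoRNAs), guides for the modification of ribosomal RNA, in their introns, and their spliced remainders are often destroyed by nonsense-mediated decay. MIR22HG is the precursor of a microRNA, PVT1 lies beside the MYC oncogene, CYTOR is a cytoplasmic and nuclear RNA linked to proliferation and cytoskeleton genes, and NORAD binds Pumilio proteins in the cytoplasm. Several of these RNAs are known to respond to DNA damage, starvation, hypoxia or growth arrest.

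The libraries held between 51934729 and 61916007 reads assigned to genes, and the 10 RNAs together took between 0.124% and 0.138% of them. Cadmium exposure was visible in the libraries, since the metallothionein gene MT1X was higher in cadmium-resistant cells by 2.87 on the log2 scale. The line's markers VIM, EGFR, KRT18, CD44 and AXL were abundant in all 4 libraries. The controls differed from each other more than the cadmium libraries did. CDH1, an epithelial gene that should be near 0 in this line, had 107 and 615 normalized counts in the controls and 169 and 119 in the cadmium libraries. Other genes that should be near 0, ESR1 and PGR, were low. ESR1 had 18.9 and 2.13 in the controls and 16.9 and 5.92 in the cadmium libraries, and PGR had 11.4 and 6.38 against 25.9 and 29.6. Of the markers of other cell types, CD3E was at 0, HBB was at most 2.84, PTPRC was 1.89 and 144 in the controls against 36.8 and 42.5, and PECAM1 was 160 and 842 against 686 and 641. Their summed normalized count was 165 and 986 in the controls and 723 and 683 in the cadmium libraries, and the part of these differences in the values below was not tested. In bulk RNA, fewer expressing cells and less RNA per cell cannot be told apart.

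To determine whether any of the 10 RNAs changed in cadmium-resistant cells, read counts were fitted with DESeq2 over the whole table, with a threshold of 0.1 on the Benjamini-Hochberg adjusted p-value. Of the 10, 0 were called, and the DESeq2 adjusted p-values ran from 0.869 for NORAD to 0.9998. In the same fit 1.14% of 19816 tested genes were called, and 0.821% of the 3531 tested lncRNA genes. At an unadjusted p-value below 0.05, DESeq2 gave 0 of the 10, against 6.92% of all tested genes, the edgeR quasi-likelihood test gave 0, and limma-voom gave 1, which was NORAD (unadjusted p = 0.0496). Neither edgeR nor limma called any gene of the table at the adjusted threshold, although 1422 of the 19241 genes tested by edgeR had an unadjusted p-value below 0.05.

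Estimated log2 fold changes of cadmium over control were above 0 for 5 of the RNAs and below 0 for the other 5, with a median of -0.01, against -0.02 over all tested genes and 0.17 over tested lncRNA genes. Both cadmium libraries lay above both controls for 3 RNAs (NORAD, SNHG5 and SNHG1), where 20.3% of all tested genes did so. Both lay below both controls for 3 others (NEAT1, MALAT1 and SNHG12), where 19.9% of all tested genes did so. The groups overlapped for GAS5, PVT1, CYTOR and MIR22HG. The 95% interval of the fold change lay within 2-fold in either direction for 7 RNAs, and included a 2-fold difference for NEAT1, SNHG5 and MIR22HG.

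**Figure D1:**
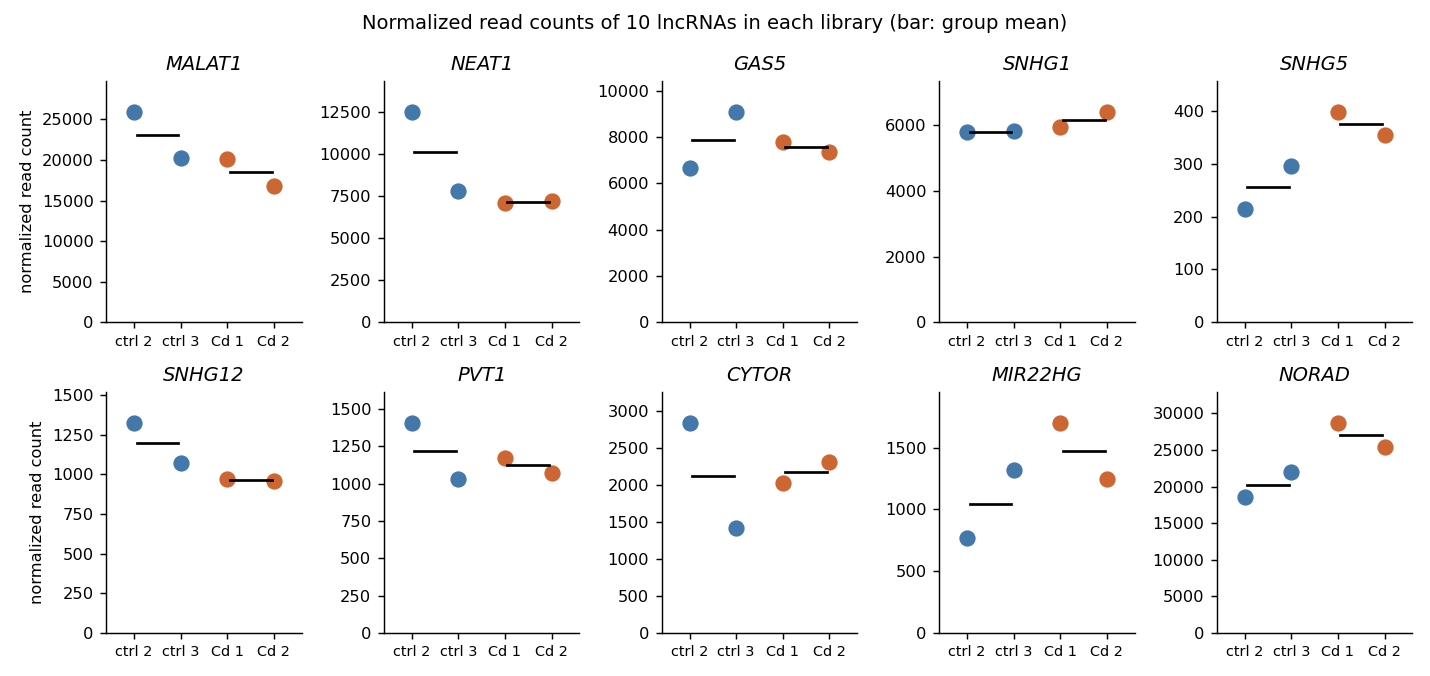
Normalized read counts (vertical axes, each from 0) of the 10 RNAs in control 2 and control 3 (blue) and cadmium 1 and cadmium 2 (orange), with group means as black bars. The cadmium points sit above both controls for SNHG1, SNHG5 and NORAD and below both for MALAT1, NEAT1 and SNHG12, while CYTOR and MIR22HG have controls far apart.

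The result rested on the pair of controls being used together. For 9 of the 10 RNAs the controls differed more from each other than the cadmium libraries did, with a median absolute log2 ratio of 0.45 in the control pair and 0.15 in the cadmium pair. Over 12924 genes whose mean normalized count reached 100 these medians were 0.39 and 0.11. For 6 of the 10 the gap between the controls was larger than the estimated difference between the groups. With control 2 left out, DESeq2 called 2 RNAs, CYTOR and NORAD, both higher. With control 3 left out it called 7, of which SNHG5, MIR22HG and NORAD were higher and MALAT1, NEAT1, SNHG12 and CYTOR lower. In these fits the lone control is assumed to vary as little as the cadmium pair, and the calls over all genes also rose, to 14.8% of 15625 tested genes without control 2 and to 31.2% of 19813 without control 3. NORAD was higher in both, with DESeq2 adjusted p-values of 0.0989 without control 2 and 0.000180 without control 3. CYTOR was called in both, in opposite directions.

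**Figure D2:**
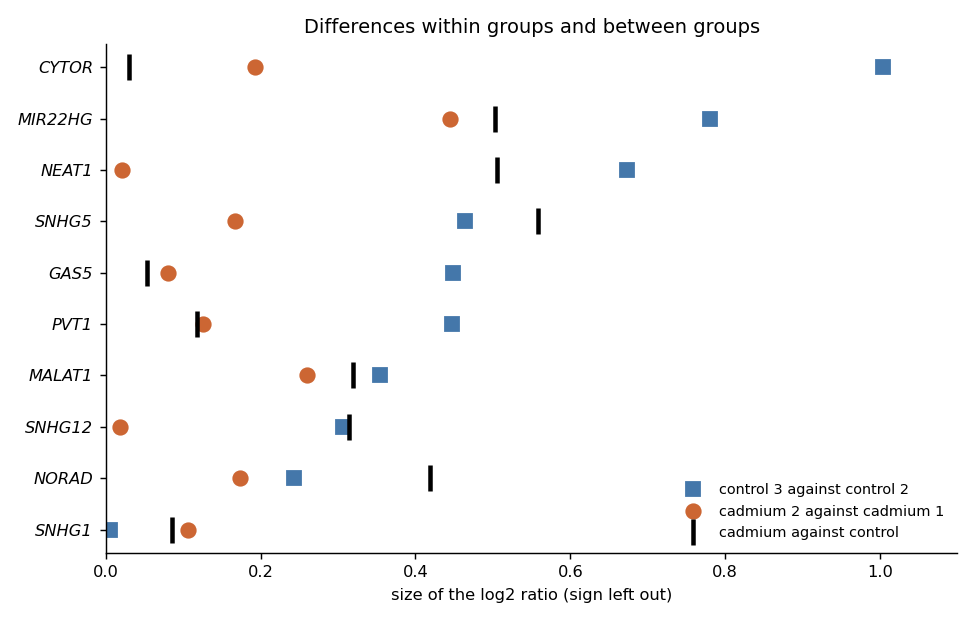
Size of the log2 ratio (horizontal axis, sign left out) in the control pair (blue squares), in the cadmium pair (orange circles) and between the groups (black bars) for each RNA. The control squares lie farther right than the cadmium circles for 9 of the 10, from 0.24 for NORAD to 1.00 for CYTOR, and SNHG1 is the exception.

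NORAD, a cytoplasmic RNA that holds Pumilio proteins, which repress translation, and is needed for stable chromosome numbers, lies at chr20:36045618-36051018 on the minus strand of hg38. It is a single exon of 5401 bases that shares no base with another gene of the table. Its normalized counts were 18525 and 21932 in the controls and 28666 and 25422 in cadmium 1 and cadmium 2. Both cadmium libraries stood above both controls, and the log2 fold change was 0.42 (SE 0.26, 95% interval -0.09 to 0.92), a 1.34-fold higher mean. This was the lowest DESeq2 adjusted p-value of the 10 at 0.869. Its 40 neighbours were the nearest genes on each side, in equal number, whose mean normalized count reached 100. They had a median log2 ratio on the other side of 0, at -0.14, so that NORAD stood 0.56 above its neighbours on the log2 scale.

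NORAD is known for repeated Pumilio sites, and the letters TGTANATA were counted on the RNA strand, written as DNA, in the canonical transcript of each of the 10. NORAD held 15, or 2.78 per kb, NEAT1 held 6, or 0.264 per kb, and the other 8 held none. Among 7208 canonical lncRNA transcripts of at least 1000 bases, 17.7% held 1 or more, the median was 0 per kb and NORAD ranked 4 by count. Of its 15 matches 10 read TGTATATA, 4 TGTAAATA and 1 TGTACATA. A few, 4 in all, are shown as 30-base stretches of the RNA strand, because they show each form and a pair that lie next to each other, with the match in capitals.
NORAD site 3 (chr20:36049702-36049731): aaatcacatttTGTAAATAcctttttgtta
NORAD site 4 (chr20:36049501-36049530): ttacttatctgTGTATATAgtgtacataaa
NORAD site 5 (chr20:36049492-36049521): tgtgtatatagTGTACATAaaggacagacg
NORAD site 11 (chr20:36047971-36048000): caaccctactgTGTATATAgcggacaaact

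Genes for proteins known to bind NORAD were also read. PUM2 was 8001 and 7030 in the controls and 6747 and 6996 in the cadmium libraries (log2 fold change -0.13, SE 0.25), and was not called although both cadmium values lay below both controls. KHDRBS1, an RNA-binding splicing regulator, was -0.13 (SE 0.27), not called, with overlapping groups.

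MALAT1, a nuclear speckle RNA whose mature end is closed by a triple helix in place of a poly(A) tail, lies at chr11:65497688-65506516 on the plus strand. Its normalized counts were 25866 and 20238 in the controls and 20141 and 16819.8 in the cadmium libraries. The cadmium values were the lower ones, but control 3 and cadmium 1 were nearly equal. The log2 fold change was -0.32 (SE 0.28, interval -0.87 to 0.23, DESeq2 adjusted p = 0.9998), and it was -0.50 without control 3, with an adjusted p of 0.00180, and -0.13 without control 2, with an adjusted p of 0.682. Genes around MALAT1 had similar ratios. Its 40 expressed neighbours had a median log2 ratio of -0.35 between the groups, and 2 of the 40 were higher in cadmium-resistant cells. That value rested on control 2, since the median of these neighbours was -0.67 and -0.59 for cadmium 1 and cadmium 2 over control 2, and 0.02 and 0.04 over control 3. Between the controls the same neighbours had a median of -0.58, lower in control 3, where MALAT1 itself had -0.35.

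NEAT1, the architectural RNA of paraspeckles, lies on the same chromosome arm at chr11:65422774-65445540, plus strand. Control 2 had 12476 normalized counts and control 3 had 7823, against 7097 in cadmium 1 and 7200.5 in cadmium 2. Control 2 stood apart, and control 3 was close to the cadmium libraries, which agreed within 1.01-fold. Its log2 fold change of -0.51 (SE 0.32, interval -1.13 to 0.12, DESeq2 adjusted p = 0.894) was the lowest of the 10. It was -0.81 without control 3 (adjusted p = 9.69e-10) and -0.13 without control 2 (adjusted p = 0.639). Neighbouring genes had a median of -0.36, 0.15 above NEAT1, which again rested on control 2, at -0.67 and -0.59 over control 2 and 0.02 and 0.03 over control 3. Most of them are also neighbours of MALAT1, so the 2 regional values are not separate. The ratio of NEAT1 to MALAT1 normalized counts was 0.482 and 0.387 in the controls and 0.352 and 0.428 in the cadmium libraries, with overlap.

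MALAT1 and the long form of NEAT1 lack a normal poly(A) tail, and the libraries were made with a kit for messenger RNA. Another 14 genes were listed for RNAs without such a tail, replication-dependent histone messages and small structural RNAs. Of these 7 were tested and 0 called, with 5 higher, 2 lower and a median log2 fold change of 0.53. The other 7 were listed at 0 in all libraries. Reads overlapping several genes or mapping to several places were dropped, so a 0 does not show that an RNA was absent. The exons of H2BC5 (861 bases in chr6:26158122-26171349) and H2AC6 (1668 bases in chr6:26124145-26139116) lie apart. Whether reads of these 2, both among the higher ones, came from messages without a tail was not tested. The summed normalized count of the 14 was 3210 and 2691 in the controls and 3226 and 3353 in the cadmium libraries. H1-4, a linker histone, had 116 and 129 in the controls against 50.8 and 46.4 in cadmium-resistant cells. Its log2 fold change was -1.33 (SE 0.48, DESeq2 adjusted p = 0.269). H2BC5, a core histone, was 0.67 (SE 0.34, adjusted p = 0.707). The part of RNA capture in the values of MALAT1 and NEAT1 was not tested.

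Messages for the proteins of both nuclear bodies were also read. Of 15 paraspeckle protein genes 0 were called, with 5 higher, 10 lower and a median log2 fold change of -0.03. NONO, which pairs with SFPQ on NEAT1, was 36582 and 47121 in the controls and 51848 and 48594 in the cadmium libraries (log2 fold change 0.26, SE 0.27). NUDT21, a subunit of a cleavage factor, was 0.19 (SE 0.27). Of 16 nuclear speckle protein genes 0 were called, with 9 higher, 7 lower and a median of 0.02. SRRM1, a splicing coactivator, was 14331 and 9438 in the controls and 8923 and 8589 in the cadmium libraries (-0.44, SE 0.31, adjusted p = 0.934), again with control 2 apart, and TRA2A was -0.22 (SE 0.26).

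**Figure D3:**
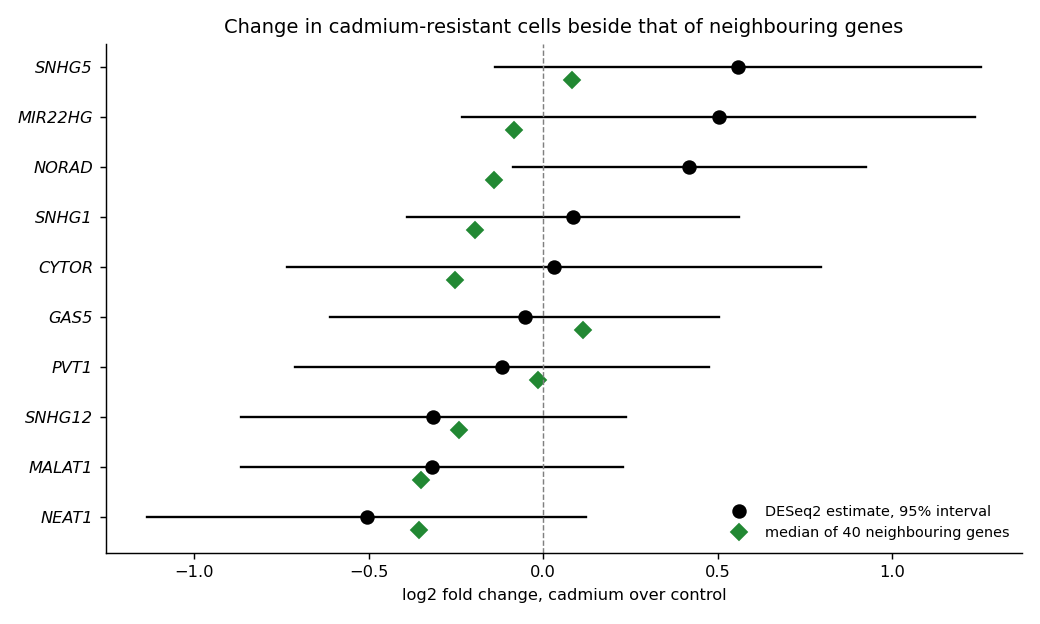
Log2 fold change of cadmium over control (horizontal axis) for each RNA, as the DESeq2 estimate with its 95% interval (black), and the median log2 ratio of its 40 expressed neighbours (green diamonds). All 10 intervals include 0. The diamonds of MALAT1, NEAT1, SNHG12 and PVT1 lie within 0.15 of the estimates, and those of SNHG5, MIR22HG and NORAD lie 0.47 to 0.58 lower.

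GAS5, a snoRNA host named for its rise in growth arrest and known as a decoy of the glucocorticoid receptor, lies at chr1:173858559-173868882 on the minus strand. It had 6645 and 9069 normalized counts in the controls, and both cadmium libraries, at 7783 and 7360.4, lay between them. The log2 fold change was -0.05 (SE 0.28, interval -0.61 to 0.50), and with upper-quartile scaling it was 0.0053, so no direction can be given. It was 0.18 without control 3 and -0.26 without control 2, neither called. The receptor gene NR3C1 was 6537 and 8611 in the controls and 8475 and 9118 in the cadmium libraries (0.22, SE 0.28), and of 6 tested genes of the receptor and its targets 0 were called. DUSP1 (-0.63, SE 0.59) and FKBP5 (-0.30, SE 0.28) had the lowest p-values among them, and both groups overlapped.

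SNHG1, host of a run of box C/D snoRNAs, lies at chr11:62851978-62855953, minus strand. Its normalized counts were 5800.4 and 5820.5 in the controls and 5941 and 6393 in the cadmium libraries. It was the steadiest of the 10 between the controls, and its cadmium values lay just above them. The log2 fold change was 0.09 (SE 0.24, interval -0.39 to 0.56, DESeq2 adjusted p = 0.9998). Neighbours of SNHG1 had a median of -0.20 between the groups and of -0.29 between the controls. Over control 3 alone this median was -0.08 for cadmium 1 and 0.02 for cadmium 2. The 7 snoRNA genes inside it take 15.4% of its summed exon bases. These bases form 1 block over the whole gene, so they include introns of the canonical transcript, which has 11 exons and shares 0 bases with other genes. Reads of SNHG1 RNA that was not spliced would therefore be counted, and their share was not tested. Reads over the snoRNA genes overlapped more than 1 gene and were dropped, so the 0 listed for each carries no information on the snoRNAs.

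SNHG12, another snoRNA host, lies at chr1:28578538-28583132, minus strand, and had 1324 and 1071 normalized counts in the controls against 969 and 957 in cadmium-resistant cells. The cadmium libraries agreed closely and were the lower ones. Its log2 fold change was -0.31 (SE 0.28, interval -0.87 to 0.24), and it was -0.47 without control 3 (DESeq2 adjusted p = 0.0571) and -0.15 without control 2 (adjusted p = 0.779). The neighbours were at -0.24 between the groups and -0.41 between the controls, and over control 3 alone they were at -0.01 and 0.01. SNORD99, a snoRNA in an intron of SNHG12 that shares no base with its exons, had 41 and 29 reads in the controls and 33 and 35 in the cadmium libraries, before normalization. Whether these reads came from the snoRNA or from SNHG12 RNA that was not spliced was not tested. The other snoRNA genes inside SNHG12 lie wholly in its summed exon bases, where such reads were dropped. These bases take 4266 of the 4595 that the gene spans, so they too include introns of the canonical transcript.

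SNHG5, a snoRNA host that is among the RNAs with an oligopyrimidine start, lies at chr6:85650491-85678932, minus strand. It had 215 and 297 normalized counts in the controls and 398 and 354 in cadmium 1 and cadmium 2. Both cadmium libraries were above both controls, and the estimate of 0.56 (SE 0.35, interval -0.14 to 1.25, DESeq2 adjusted p = 0.894) was the highest of the 10. Without control 3 it was 0.80 (adjusted p = 0.0506), and without control 2 it was 0.34 (adjusted p = 0.639). Neighbouring genes had a median of 0.08. Only a part of SNHG5 could be counted. Of the 1316 bases of its canonical transcript 799 (60.7%) lie in exons of other genes, and reads there were assigned to no gene. One of these is a readthrough gene (ENSG00000271793) on the same strand whose 8624 exon bases all lie in exons of SNX14, SYNCRIP and SNHG5, and it was listed at 0 in all 4 libraries.

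Other genes for this machinery did not pass the threshold. Of 25 other snoRNA hosts 22 were tested and 0 called, with 10 higher, 12 lower and a median of -0.05. SNHG25 had 311 and 274 normalized counts in control cells against 165 and 191 in resistant cells (log2 fold change -0.72, SE 0.35, DESeq2 adjusted p = 0.675), and SNHG11 had 315 and 345 against 208 and 239.9 (-0.56, SE 0.34, adjusted p = 0.856). Both lay below the controls without overlap. Of 8 snoRNP protein genes 0 were called, with a median of -0.10, where NOP10 was -0.23 (SE 0.29) and SNU13 -0.15 (SE 0.26). Of 12 nonsense-mediated decay factors 0 were called, with 6 higher and 6 lower. UPF3B, an exon junction adaptor of that decay, was 1324 and 1975 in the controls and 2282 and 2325 in the cadmium libraries (0.48, SE 0.31, adjusted p = 0.901), and SMG9 was 0.19 (SE 0.24).

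MIR22HG, the host of miR-22, lies at chr17:1711447-1717174, minus strand. The mature RNAs cut from it are shown because the gene is known through them. Sequences are from RefSeq on GRCh38.p14, with the seed, bases 2 to 8, in capitals.
hsa-miR-22-3p (chr17:1713914-1713935, minus strand): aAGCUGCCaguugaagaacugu
hsa-miR-22-5p (chr17:1713952-1713973, minus strand): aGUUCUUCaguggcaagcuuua

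The host had 765 and 1314 normalized counts in the controls and 1697 and 1247 in the cadmium libraries. Control 2 was the lowest, cadmium 1 the highest, and control 3 lay above cadmium 2. The log2 fold change was 0.50 (SE 0.37, interval -0.23 to 1.24, DESeq2 adjusted p = 0.953). It was 0.93 without control 3 (adjusted p = 0.000245) and 0.16 without control 2 (adjusted p = 0.784). Neighbours had a median of -0.08 with 40 genes and 0.06 with 20. The row of the microRNA gene was at 0, which says nothing of the mature miRNAs, because all 85 of its bases lie in an exon of the host and reads there were dropped. Of 19 other miRNA host lncRNAs 13 were tested and 0 called, with 8 higher, 5 lower and a median of 0.37. The list is not complete, since MIR137HG, a host outside it, was called higher (1.46, SE 0.42, DESeq2 adjusted p = 0.0654) and is named after its values were seen. DLEU2 was 201 and 202 in the controls and 129 and 114 in the cadmium libraries (-0.73, SE 0.38, adjusted p = 0.747), and MIR17HG was 0.75 (SE 0.53, adjusted p = 0.932).

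CYTOR, also known as LINC00152, lies at chr2:87454781-87636740 on the plus strand. Control 2 had 2842 normalized counts and control 3 had 1416, against 2029 in cadmium 1 and 2320.2 in cadmium 2. The controls differed 2.01-fold, the most of the 10, and the cadmium values lay between them. The log2 fold change was 0.03 (SE 0.39, interval -0.73 to 0.79, DESeq2 adjusted p = 0.9998), 0.62 without control 2 (adjusted p = 0.00557) and -0.40 without control 3 (adjusted p = 0.0551). CYTOR has a near copy, MIR4435-2HG. Of the CYTOR exon bases 73.7% aligned to that gene at 98% identity or more over at least 150 bases. Reads that mapped to both genes were dropped, so the counts of both may be too low. The placing of the other reads in these stretches is uncertain. MIR4435-2HG showed the same order of libraries, at 6249 and 2989 in the controls and 4001 and 4186 in the cadmium libraries (-0.17, SE 0.39). Of the canonical CYTOR transcript 39.8% lies in exons of other lncRNA genes, LINC01943 or NCAL1, where reads were assigned to no gene.

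PVT1, whose gene spans chr8:127794526-128187101 on the plus strand, had 1406 and 1031 normalized counts in the controls and 1172 and 1074 in the cadmium libraries. The cadmium values lay between the controls. Its log2 fold change was -0.12 (SE 0.30, interval -0.71 to 0.47, DESeq2 adjusted p = 0.9998), with 0.12 without control 2 and -0.34 without control 3, so the direction turned with the control used. MYC, its neighbour, was 20242 and 7555 in the controls against 16290.0 and 11518 in cadmium-resistant cells, so the log2 fold change was 0.00 (SE 0.47). For both genes control 2 was highest, control 3 lowest and the cadmium libraries between, and MYC had the wider gap.

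**Figure D4:**
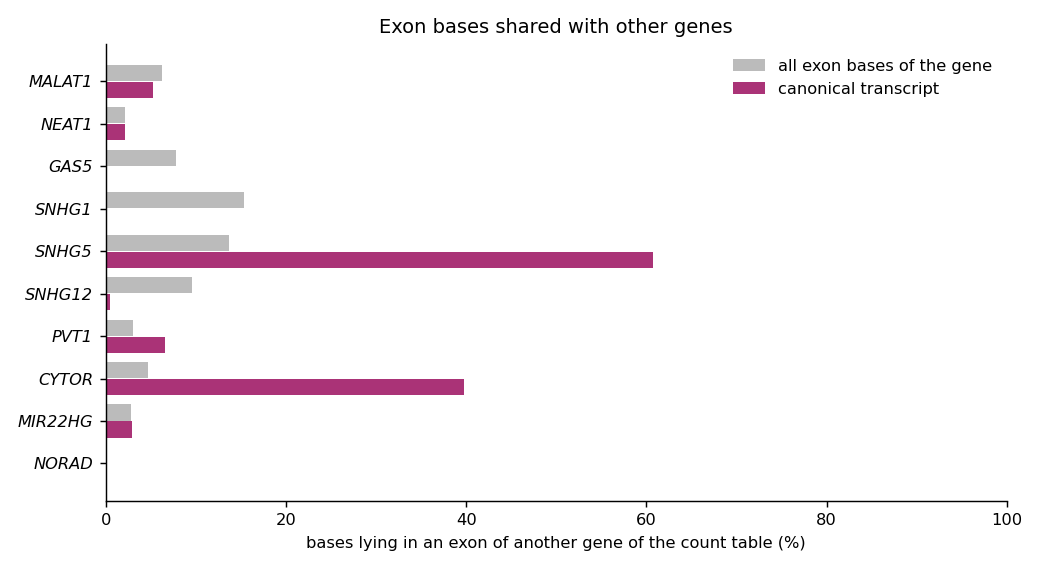
Share (%) of exon bases of each RNA that lie in an exon of another gene of the count table, for all exons of the gene (grey) and for its canonical transcript (purple). SNHG5 (60.7%) and CYTOR (39.8%) stand out by the canonical transcript, and NORAD has 0 by both.

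Levels of the RNAs were compared per length, as reads per kb of summed exon, scaled to the assigned reads of each library (RPKM). NORAD was the highest with a mean over the 4 libraries of 78.3 and a range of 58.5 to 96.8, above 97.6% of the tested genes. MALAT1 followed at 41.8 (34.1 to 50.01), then GAS5 at 27.9 (23.0 to 33.3) and SNHG1 at 26.9 (24.9 to 28.8), whose ranges overlapped. MIR22HG at 7.43 (4.30 to 10.2) and NEAT1 at 6.73 (5.66 to 9.35) also overlapped. SNHG12 at 4.50, CYTOR at 2.16, PVT1 at 0.822 and SNHG5 at 0.449 were the lowest, and no other neighbours in this order overlapped.

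The order depended on the length used. Only the length was changed, and all reads assigned to a gene were kept. Reads that lie outside a shorter length raise the level given for it, and their share was not tested. With the length of the canonical transcript, an alternative chosen after seeing the data, GAS5 came first at 179, followed by SNHG1 at 91.9, NORAD at 78.3 and CYTOR at 37.4. MALAT1 was 35.4 by this length, but its canonical transcript of 10434 bases is longer than the 8829 bases in which its reads were counted. SNHG5 was 4.30, the lowest, with all its canonical bases in the length. Dividing all its reads by the 517 of these bases that lie in no exon of another gene gave 10.9. This was likewise an alternative chosen after seeing the data. By that measure SNHG5 was above SNHG12 at 10.3, PVT1 at 9.12, MIR22HG at 8.07 and NEAT1 at 6.88, and CYTOR was 62.2. GAS5 has 4932 summed exon bases and a canonical transcript of 768 bases, and CYTOR has 17695 and 1020. NEAT1 has 22767 and 22743, so both of its lengths are those of the long form. A level of NEAT1 by a shorter form was not computed. NORAD has the same length by both, and its level did not depend on this choice.

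**Figure D5:**
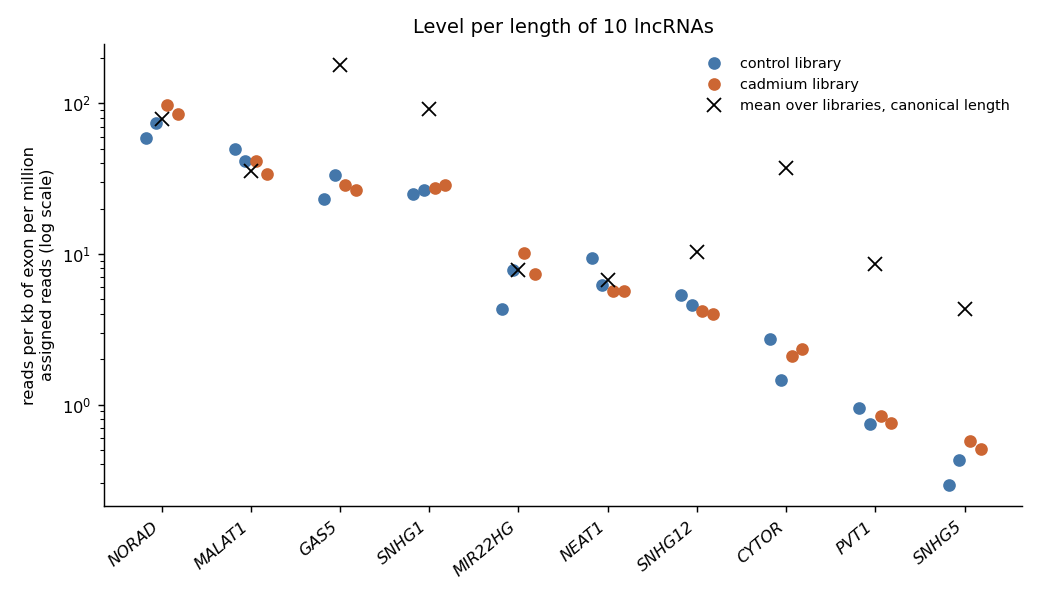
Level of each RNA (vertical axis, log scale, RPKM by summed exon length) in each control library (blue) and cadmium library (orange), in order of the mean, with the mean by canonical transcript length as crosses. The points of NORAD lie between 58.5 and 96.8 and those of SNHG5 between 0.291 and 0.576, and the crosses lie far above the points for GAS5, CYTOR, PVT1 and SNHG5.

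The sequence before each start was read from RefSeq on GRCh38.p14, as 250 bases before to 50 after the start. Of the 10 RNAs 8 had an entry, with 9 windows in all, and NEAT1 and PVT1 had none. Both strands were searched for 6 motifs, and the share of 35116 promoters holding each was 7.71% for the AP-1 site TGANTCA, 12.1% and 20% for the metal response element cores TGCACNC and TGCGCNC, 13.3% for the antioxidant response element core TGACNNNGC, 7.26% for the E-box CACGTG and 11.5% for the TATA box TATAAA. A match is a description of the letters and not a bound site. The windows of CYTOR, which holds the AP-1 letters in the only case among the 8, and of the 3 RNAs with both cadmium libraries above the controls are shown, with matches in capitals.
CYTOR (chr2:87455177-87455476, plus strand): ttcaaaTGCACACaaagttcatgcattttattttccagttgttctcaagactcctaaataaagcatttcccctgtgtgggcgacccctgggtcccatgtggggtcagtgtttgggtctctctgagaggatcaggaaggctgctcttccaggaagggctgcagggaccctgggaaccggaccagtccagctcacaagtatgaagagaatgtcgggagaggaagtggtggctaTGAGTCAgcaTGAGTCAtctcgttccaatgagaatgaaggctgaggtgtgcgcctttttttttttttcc
NORAD (chr20:36050911-36051210, minus strand): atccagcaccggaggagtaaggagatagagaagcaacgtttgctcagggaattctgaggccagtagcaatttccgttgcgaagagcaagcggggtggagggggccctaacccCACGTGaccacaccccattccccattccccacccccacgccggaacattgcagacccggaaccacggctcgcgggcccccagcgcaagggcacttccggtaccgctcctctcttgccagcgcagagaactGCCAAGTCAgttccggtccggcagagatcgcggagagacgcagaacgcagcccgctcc
SNHG5 (chr6:85678684-85678983, minus strand): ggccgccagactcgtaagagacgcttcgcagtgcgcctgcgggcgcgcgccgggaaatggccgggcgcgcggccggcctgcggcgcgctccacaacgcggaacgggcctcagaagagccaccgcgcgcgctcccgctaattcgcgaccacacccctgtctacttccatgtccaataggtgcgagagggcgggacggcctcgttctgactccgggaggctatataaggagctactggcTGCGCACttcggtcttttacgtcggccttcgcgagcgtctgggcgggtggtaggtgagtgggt
SNHG1 (chr11:62855836-62856135, minus strand): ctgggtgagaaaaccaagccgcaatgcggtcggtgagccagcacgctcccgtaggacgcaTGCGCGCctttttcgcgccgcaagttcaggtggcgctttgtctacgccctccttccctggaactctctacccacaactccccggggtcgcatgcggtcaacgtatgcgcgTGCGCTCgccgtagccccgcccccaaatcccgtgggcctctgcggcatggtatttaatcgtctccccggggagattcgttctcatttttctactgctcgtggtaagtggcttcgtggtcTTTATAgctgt

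CYTOR held the AP-1 letters at both -19 to -13 and -9 to -3 from the start, and a metal response element core at -244 to -238. SNHG5 held 1 G-form core at -13 to -7, and SNHG1 held 2, at -190 to -184 and -80 to -74. SNHG1 also held the TATA letters on the other strand at 39 to 44, which is after the start. NORAD held the E-box at -138 to -133 and the antioxidant core on the other strand at -8 to 0, where 0 is the start. MALAT1 had 2 windows. In chr11:65497488-65497787 it held a G-form core at -233 to -227 that overlapped an antioxidant core at -231 to -223, and another antioxidant core at -51 to -43. In chr11:65498795-65499094, around a later start, it held the TATA box at -30 to -25. For CYTOR, SNHG12 and MIR22HG the RefSeq start lies 646, 1259 and 964 bases inside the start in the count table, so these genes have upstream starts that were not searched.

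Other stress and cancer lncRNAs gave 1 call. Of 26 listed 24 were in the table and 16 tested, with 9 higher, 7 lower and a median of 0.11. In the same fit 1.14% of all tested genes and 0.821% of tested lncRNA genes were called. UCA1, an RNA known from bladder cancer and drug resistance, had 83.3 and 38.3 normalized counts in the controls against 176 and 261 in cadmium-resistant cells. It was higher in both of the latter, and the log2 fold change was 1.84 (SE 0.54, DESeq2 adjusted p = 0.0682), while edgeR and limma called no gene. GABPB1-AS1 was 551 and 1345 in the controls and 1823 and 1551 in the cadmium libraries (0.83, SE 0.45, adjusted p = 0.757). None of the 10 RNAs followed here had an estimate past the 0.56 of SNHG5 in either direction.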

How the data were processed

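RNA-seq was performed on total RNA of control and cadmium-resistant MDA-MB-231 cells, 2 libraries each. The authors removed adaptors, aligned read pairs to hg38 with HISAT2 and assigned reads to genes of Ensembl release 105 with featureCounts 2.0.1. What they deposited are unnormalized read counts for each gene. The header command set no strand, pair or overlap option, so strand was ignored, mates were counted separately (70.6% to 71.5% of counts of 1 to 20 were even), and reads overlapping several genes or mapping to several places were dropped. Counting error is therefore larger than the counts alone give. The molecule label names genomic DNA, while the extraction protocol describes total RNA.

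Gene symbols matched 61369 of 61541 identifiers. Counts were normalized with DESeq2 1.42.0 (R 4.3.3) by median-of-ratios size factors (0.941 to 1.06) and tested with its two-sided Wald test, after independent filtering at a mean normalized count of 7.69. Intervals are 95% Wald intervals. Alternatives were edgeR 4.0.16 (quasi-likelihood test), limma 3.58.1 (voom), upper-quartile and TMM factors, no filter, at least 10 counts in 2 libraries, halved counts, size factors from protein-coding genes and leaving out each library. Neighbours were 40 genes whose mean normalized count reached 100, the nearest on each side along the chromosome in equal number. Overlaps came from the exon coordinates of the count table, transcripts and gene types from GENCODE 44, and CYTOR was aligned with blastn 2.17.0. The scripts were tested on simulated data.

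The 10 RNAs and the gene lists were chosen with earlier results of these data known. Named from each list were MIR4435-2HG, MYC, NR3C1, PUM2, called genes, and otherwise up to 2 genes of lowest p whose mean normalized count reached 50. snoRNA and miRNA genes inside the RNAs were named at 10 reads or more. A gene of the NORAD-binding list, and the count over that list, are not reported here. Binding and accessibility assays were not analysed here.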

Additional observations from a re-analysis of the deposited data

How the results depend on the processing

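With all 4 libraries kept, the 8 alternatives called 0 of the 10 RNAs, and 79 of 80 estimates kept their direction. The exception was GAS5, at 0.0053 with upper-quartile factors. Between 0 and 152 genes were called higher over the whole table under these settings. Upper-quartile factors gave 152 higher and 88 lower, halved counts gave 85 and 85, and no independent filtering gave 86 and 81. Leaving out a library moved more. The number of RNAs called higher ran from 0 to 3 and of those called lower from 0 to 4, and the median log2 fold change of the 10 ran from -0.13 to 0.10. The estimate ran from -0.26 to 0.18 for GAS5, from -0.34 to 0.12 for PVT1 and from -0.40 to 0.62 for CYTOR, which was -0.07 without cadmium 2. All calls came from leaving out a control, and leaving out cadmium 1 or cadmium 2 called 0 of the 10, with 12 genes higher and 5 lower over the table without cadmium 1 and 9 and 5 without cadmium 2. No paired analysis was possible because the groups share fewer than 2 numbers in the count table, where controls carry 2 and 3 and cadmium libraries 1 and 2. Each of the 10 RNAs had at least 227 reads in every library, with mates counted separately. With 2 libraries per group, intervals reached 2-fold for 3 of them. The part of depth in these intervals was not tested, because halving the counts adds no sampling noise.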

Other observations

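DESeq2 called 29 of the 3531 tested lncRNA genes at an adjusted p-value below 0.1, or 0.821%, against 1.14% of all tested genes. None of the 10 RNAs above was among them. Of the 29, 26 were higher and 3 lower in cadmium-resistant cells, while edgeR and limma called none. Over all tested genes DESeq2 called 119 higher and 106 lower. Of the tested lncRNA genes 61.6% had an estimate above 0, against 47.4% of all tested genes, and lncRNA genes took 0.741% and 0.842% of reads in the controls and 0.916% and 0.865% in the cadmium libraries. The genes named here were chosen after their values were seen. LINC01204 had 32.2 and 73.4 normalized counts in the controls and 335 and 281 in the cadmium libraries (log2 fold change 2.55, SE 0.50). LINC00973 rose from 437 and 342 to 1083 and 972 (1.40, SE 0.30), and MIR137HG, the host of miR-137, from 309 and 679 to 1451 and 1266 (1.46, SE 0.42). MANCR, an RNA known from mitosis in breast cancer cells, was the most abundant of the named genes, at 1575 and 1101 in the controls and 2904 and 2628 in the cadmium libraries (1.05, SE 0.31). HIF1A-AS3, which overlaps HIF1A on the opposite strand and was counted without strand, went from 149.5 and 49.97 to 513 and 440.3 (2.25, SE 0.53).

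PSMG3-AS1 fell from 328 and 410.4 normalized counts in control cells to 124 and 88.9 in resistant cells (log2 fold change -1.79, SE 0.39). MNX1-AS1 fell from 245 and 68.1 to 31.8 and 11.8 (-2.84, SE 0.78), with a wide gap between the controls. CASC19, which lies on the MYC side of PVT1, rose from 15.1 and 11.7 to 111 and 43.4 (2.53, SE 0.77), whereas PVT1 itself had overlapping groups and an estimate of -0.12. Whether these differences hold in further control libraries was not tested.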
